A study of Mus musculus with 4 samples.

Results

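EGF-family ligands, their ErbB receptors and the receptor inhibitor Lrig1 were followed as a set of 10 genes in adenomas of ApcMin mice labelled Strap KO or Strap WT. The set held the 6 ligand genes Egf, Areg, Ereg, Btc, Hbegf and Tgfa, the 3 receptor genes Egfr, Erbb2 and Erbb3, and Lrig1. All 10 were found by symbol among the 17762 genes listed in at least 1 library, and all 10 passed the filter on low counts, which kept 12769 genes. There were 4 libraries of polyadenylated RNA, 2 labelled ApcMin Strap KO (KO) and 2 labelled ApcMin Strap WT (WT). All mice were C57BL/6, carried the ApcMin allele, an inherited Apc mutation that gives rise to intestinal tumours, and were 110 days old. The series calls the KO mice StrapIEKO, and the deleted part of Strap, the Cre driver and any pooling of animals are not stated in the sources read here.

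EGF-family ligands are made as membrane-bound precursors that metalloproteases cut free. They bind receptors of the ErbB family, which pair up, phosphorylate each other and feed the ERK and PI3K-AKT cascades that drive epithelial growth. In the intestine these signals sustain crypt proliferation and adenoma growth, and Lrig1, a transmembrane protein of crypt progenitors, limits them by promoting receptor degradation.

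The libraries held 14084831 to 15640941 expected counts each. Levels between groups are given as CPM, counts relative to library totals after TMM scaling, and levels between genes as FPKM, which also corrects for transcript length. Strap, which checks the labels, stood at 20.5 and 24.8 CPM in KO and at 157 and 112 CPM in WT (log2 fold change -2.57, SE 0.26, edgeR adjusted p = 0.0942, DESeq2 adjusted p = 8.17e-14). Each genotype held 1 library with high Xist, a transcript of female cells, at 197 CPM in KO replicate 1 and 967 CPM in WT replicate 1, against 0.953 CPM in KO replicate 2 and 0.194 CPM in WT replicate 2. Ddx3y, a gene of the Y chromosome, had the opposite pattern, at 0 and 33.3 CPM in KO and 0 and 39.1 CPM in WT. The labelled tissue was colon, but the summed level of 8 small intestine genes was 9063 to 20200 CPM. That of 7 colon genes was 58.6 to 163 CPM, of which Muc4 alone gave 58.06 to 161.5 CPM. Single small intestine genes differed between libraries. Fabp6 was at 893 and 118 CPM in KO and 421 and 2451 CPM in WT, and Gata4 at 156 and 165 CPM in KO and 134 and 27.3 CPM in WT. Whether the libraries come from the same part of the gut was not tested.

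Some libraries stood apart in markers of other cells. Genes of Brunner glands and gastric-type epithelium, summed, were at 1.09 and 2.45 CPM in KO and at 510.6 and 6.68 CPM in WT. Summed endothelial markers were at 1.91 and 2.52 CPM in KO and at 44.5 and 2.59 CPM in WT. Both sums were thus highest in WT replicate 1, but Cdh5 alone gave 35.6 CPM of the endothelial sum there. Vwf, Tek and Kdr were also highest in that library, at 4.81, 3.08 and 0.32 CPM. Pecam1 was highest in KO replicate 2, at 1.29 CPM, and Plvap in KO replicate 1, at 0.614 CPM. Paneth cell genes were highest in WT replicate 2, with 15800 and 9497 CPM in KO and 12030 and 34400 CPM in WT. So was the sum of crypt base stem cell genes, with 643 and 837 CPM in KO and 746 and 1802 CPM in WT. Olfm4 alone gave 874.8 CPM of it in WT replicate 2. All 8 of these stem cell genes had a log2 fold change below 0, against 49.7% of all genes tested. The genotypes overlapped in 5 of the 8 and stood apart, with KO lower, in 3, against 24.6% of all genes. Of the 8, edgeR called 0 and DESeq2 called 2, as lower in KO. Over all genes the shares called lower were 0% with edgeR and 3.32% with DESeq2. The 8 genes were chosen and share libraries, so their counts are a description. Lgr5 was at 4.84 and 6.26 CPM in KO and 34.4 and 70.5 CPM in WT. Tnfrsf19, highest in WT replicate 1, was at 2.59 and 3.13 CPM in KO and 19.8 and 10.3 CPM in WT. T and natural killer cell genes were highest in KO replicate 2, with 31.2 and 281 CPM in KO and 51.1 and 35.9 CPM in WT. Epithelial genes summed to 15590 and 11620 CPM in KO and to 13530 and 15430 CPM in WT, with all 11 listed in every library. Markers of fibroblasts reached at most 15.5 CPM, of smooth muscle 4.87 CPM and of macrophages 13.8 CPM, each highest in WT replicate 1. The fibroblast markers Postn and Grem1 were not listed in any library. The part of these cells in the results that follow was not tested.

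Promoter windows of 4 of the genes that lay lower in both KO libraries, and of Areg, which did not, are shown so that the sequence at their starts can be set beside their levels. They come from RefSeq on GRCm38.p6, the assembly of mm10, and run from 250 bases before an annotated start to 50 bases from it. The table held windows for 7 of the 10 genes, and none for Erbb3, Ereg and Hbegf. The windows of Btc and Lrig1 are not shown. Capitals mark a match, on either strand, to any of 5 motifs. The CRE, the element bound by CREB, was searched as TGACGTCA. For AP-1, the dimer of Fos and Jun proteins, the letters searched were TGACTCA. The element of TCF/LEF factors, the partners of beta-catenin downstream of Apc, was searched as CTTTGAT. The GC box, which Sp1-type factors bind in many promoters, was searched as GGGCGG. For the TATA box, which places the start of transcription, the letters searched were TATAAA. None of the matches overlapped another in these windows. The windows are chr3:129755273-129755572 for Egf on the minus strand and, on the plus strand, chr6:86194972-86195271 for Tgfa, chr11:16751953-16752252 for Egfr, chr11:98412234-98412533 for Erbb2 and chr5:91139349-91139648 for Areg. The RefSeq table holds a further window for Egf at another start, which is not shown.
Egf: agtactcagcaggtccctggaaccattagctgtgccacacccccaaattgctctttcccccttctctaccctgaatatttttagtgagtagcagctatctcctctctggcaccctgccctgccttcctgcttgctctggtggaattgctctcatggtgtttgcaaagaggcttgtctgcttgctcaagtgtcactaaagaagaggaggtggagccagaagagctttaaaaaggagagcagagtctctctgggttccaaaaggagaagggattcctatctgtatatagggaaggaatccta
Tgfa: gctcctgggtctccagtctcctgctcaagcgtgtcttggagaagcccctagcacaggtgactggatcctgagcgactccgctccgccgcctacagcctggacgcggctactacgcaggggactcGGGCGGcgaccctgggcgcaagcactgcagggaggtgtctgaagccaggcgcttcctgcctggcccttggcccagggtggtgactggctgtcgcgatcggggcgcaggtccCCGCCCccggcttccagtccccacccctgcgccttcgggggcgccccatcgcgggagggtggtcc
Egfr: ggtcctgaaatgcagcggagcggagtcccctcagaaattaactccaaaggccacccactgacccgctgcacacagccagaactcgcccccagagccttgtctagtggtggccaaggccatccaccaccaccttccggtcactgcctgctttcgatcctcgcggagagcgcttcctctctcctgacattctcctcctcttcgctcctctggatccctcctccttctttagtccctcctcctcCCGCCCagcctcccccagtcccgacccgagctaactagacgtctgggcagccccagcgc
Erbb2: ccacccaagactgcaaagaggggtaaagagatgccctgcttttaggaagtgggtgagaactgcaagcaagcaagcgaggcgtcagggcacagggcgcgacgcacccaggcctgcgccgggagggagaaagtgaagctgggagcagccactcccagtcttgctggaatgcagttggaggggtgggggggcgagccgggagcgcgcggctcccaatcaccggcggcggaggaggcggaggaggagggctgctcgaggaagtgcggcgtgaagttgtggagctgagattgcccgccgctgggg
Areg: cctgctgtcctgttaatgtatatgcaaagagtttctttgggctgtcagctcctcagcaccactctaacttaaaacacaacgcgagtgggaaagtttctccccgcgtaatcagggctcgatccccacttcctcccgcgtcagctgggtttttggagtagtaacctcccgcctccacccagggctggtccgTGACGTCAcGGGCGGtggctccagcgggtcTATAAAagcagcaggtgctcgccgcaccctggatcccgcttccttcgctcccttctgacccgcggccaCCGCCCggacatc

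The Areg window held a CRE at bases 190 to 197, a GC box at bases 199 to 204 and a TATA box at bases 220 to 225, with a further GC box on the other strand at bases 288 to 293. A CRE was present in 1.79% of all 32851 promoter windows and a TATA box in 13.6%. GC boxes, found in 35.7% of all windows, were present in Tgfa, Egfr and Areg, and the Egf and Erbb2 windows held none of the 5 motifs. No window shown held these letters of an AP-1 or TCF/LEF site, which were found in 5.2% and 3.73% of all windows. G and C made up 49.0% of the Egf window, against a median of 52.7% over all windows.

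Of the 10 genes the smallest p was found for a receptor. Erbb3, a receptor with an impaired kinase that binds neuregulins and signals through its partners, averaged 46.9% of its WT level in KO. Erbb2, the partner receptor without a known ligand of its own, differed little, so the order of these receptors differed between the genotypes: Erbb3 was the most abundant receptor transcript in both WT libraries and Erbb2 in both KO libraries. Egfr, the receptor of all 6 ligands, was also lower in KO, mainly against WT replicate 1.

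Erbb3, on chromosome 10 from 128567523 to 128589635, had 1441 and 1703 expected counts in KO replicates 1 and 2 and 3631 and 3454 in WT replicates 1 and 2. This was 98.3 and 116 CPM in KO and 233 and 224 CPM in WT. The KO values were far below the WT values, and the gap between the groups was several times the gap within them. The mean was 107 ± 12.4 CPM in KO and 228 ± 6.25 CPM in WT (SD, n = 2 each), a log2 fold change of -1.09 (SE 0.21, 95% interval -1.61 to -0.58), or 46.9% of the WT level. Erbb3 ranked 166 of 12769 genes by p. Its adjusted p over all genes was 0.162 with edgeR, which does not pass 0.05, and 0.000366 with DESeq2, which does. Of all genes tested, edgeR called 0.00783% higher and 0% lower, and DESeq2 called 1.82% higher and 3.32% lower, so the tools differ in how many genes they call at all. edgeR found 8.69% of genes lower at an unadjusted p under 0.05, and Erbb3 and Egf were among them. With each library left out in turn the log2 fold change of Erbb3 stayed between -1.24 and -0.98. In a bulk sample, fewer Erbb3-expressing cells and less Erbb3 RNA per cell cannot be told apart.

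Egfr, on chromosome 11 from 16752203 to 16913907, was at 24.6 and 26.6 CPM in KO and at 64.3 and 30.3 CPM in WT. The KO libraries lay below both WT libraries, but only narrowly below WT replicate 2. The log2 fold change was -0.89 (SE 0.37, 95% interval -1.80 to 0.02, edgeR adjusted p = 0.326), and without WT replicate 1 it was -0.26. Transcripts of Egfr were counted together, and the average length that the authors' table gives for them was 4815 and 5215 bases in KO and 5653 and 5219 bases in WT. That length was thus lowest in KO replicate 1 and highest in WT replicate 1, and the isoforms were not separated further. Erbb2, on chromosome 11 from 98412484 to 98437716, was at 181 and 168 CPM in KO and at 200 and 196 CPM in WT. Although the groups did not overlap, the difference was small, with a log2 fold change of -0.18 (SE 0.20, 95% interval -0.68 to 0.31, edgeR adjusted p = 0.686).

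**Figure D1:**
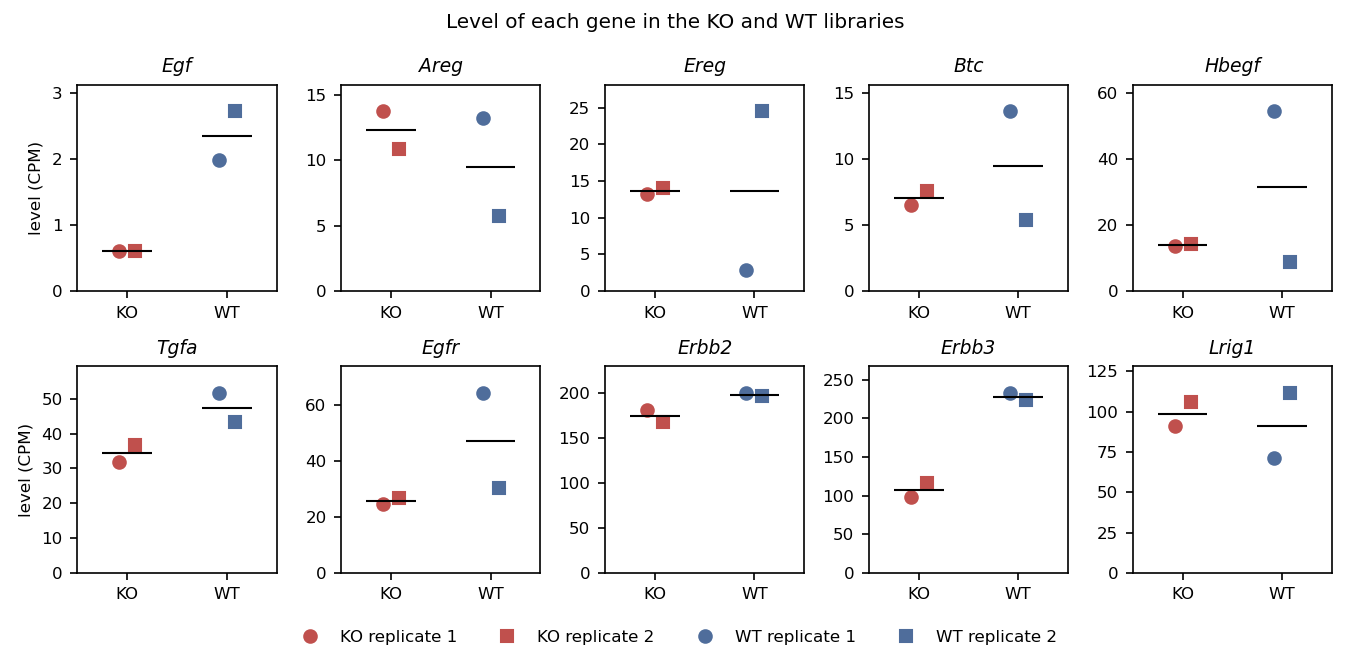
Level in CPM (y axis, starting at 0, with its own scale for each gene) of the 10 genes in KO and WT libraries, with circles for replicate 1, squares for replicate 2 and a line at each group mean. Egf, Tgfa, Egfr, Erbb2 and Erbb3 lie lower in both KO libraries than in both WT libraries, with the smallest p for Erbb3 and Egf. Hbegf, Btc and Ereg differ most between the WT libraries relative to their mean.

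Within each library the receptors could be set against each other per length. Erbb3 made up 37.3% and 42.8% of the summed FPKM of Egfr, Erbb2 and Erbb3 in KO, and 53.1% and 55.4% in WT. The ratio of Erbb2 to Erbb3 in FPKM was 1.48 and 1.16 in KO and 0.689 and 0.703 in WT. It was above 1 in both KO libraries and below 1 in both WT libraries. Egfr was the least abundant of the 3 in every library, at 7.75% and 7.54% of the sum in KO and 10.4% and 5.74% in WT.

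**Figure D2:**
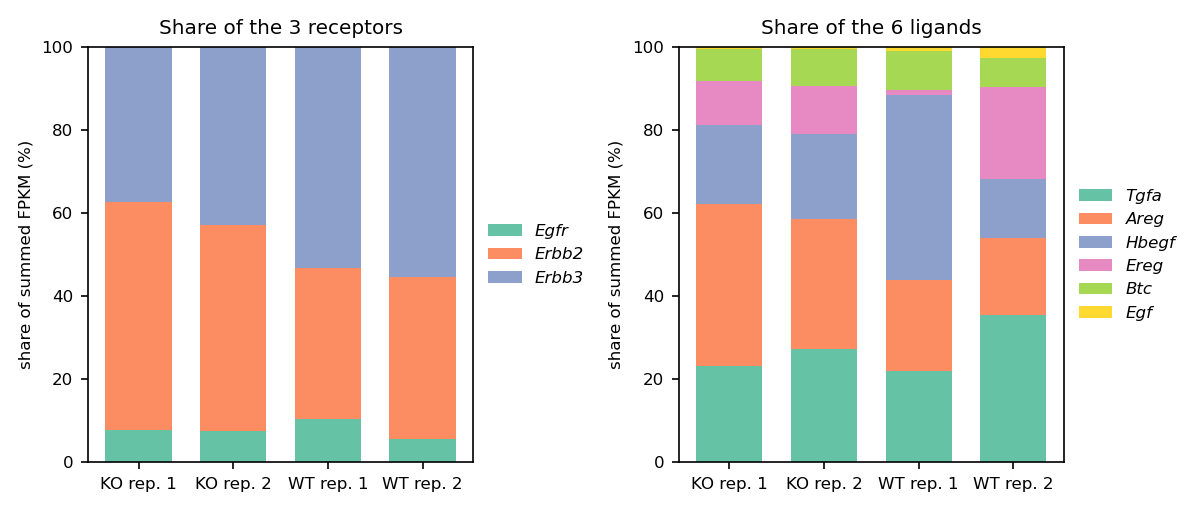
Share of each gene in the summed FPKM of the 3 receptors (left) and of the 6 ligands (right), as stacked bars per library that add up to 100%. The Erbb3 share is 37.3% and 42.8% in KO and 53.1% and 55.4% in WT, and the Hbegf share is highest in WT replicate 1 at 44.5%.

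Among the ligands, Egf and Tgfa lay lower in both KO libraries than in both WT libraries, and the other 4 did not separate the genotypes. Of all genes tested, 24.6% lay lower in both KO libraries and 25.4% higher, so such separation is common with 4 libraries. Egf, the founding ligand, on chromosome 3 from 129677574 to 129755322, was the rarest of the 6. It had 9 and 9 expected counts in KO and 30.6 and 42 in WT, or 0.614 and 0.613 CPM in KO and 1.99 and 2.72 CPM in WT. The lower WT library stood over 3 times above either KO library. Egf passed the filter on low counts through the WT libraries, where it was high, so this separation is not separate support for a difference. Its log2 fold change of -1.93 had a wide error at these counts (SE 0.65, 95% interval -3.51 to -0.34, edgeR adjusted p = 0.271), and KO stood at 26.3% of the WT level. Without WT replicate 2 the log2 fold change of Egf was -1.68. Paneth cells are a known source of Egf in the crypt, and their summed markers were highest in WT replicate 2, as was Egf. All 11 Paneth cell genes were lower in value in KO, but their sum was 15800 CPM in KO replicate 1 and 12030 CPM in WT replicate 1. The part of Paneth cells in the Egf difference was not tested.

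Tgfa, the ligand TGF-alpha of differentiated epithelium, on chromosome 6 from 86195038 to 86275744, was at 31.9 and 36.7 CPM in KO and at 51.7 and 43.3 CPM in WT. The groups did not overlap, with a log2 fold change of -0.47 (SE 0.21, 95% interval -0.98 to 0.04, edgeR adjusted p = 0.345). Its direction was the same with each library left out (-0.59 to -0.35).

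Hbegf, the heparin-binding ligand induced early after growth factor stimulation, on chromosome 18 from 36504927 to 36515805, was at 13.6 and 14.3 CPM in KO and at 54.3 and 8.88 CPM in WT. WT replicate 1 was far above the other 3 libraries and WT replicate 2 was the lowest of the 4. The log2 fold change of -1.18 (SE 0.76, edgeR adjusted p = 0.488) therefore rested on WT replicate 1: without it the value was 0.63, and without WT replicate 2 it was -1.96 with an adjusted p of 0.0409. In that setting edgeR called 1.04% of all genes lower and 0.321% higher, and Hbegf was the 1 member among them. Errfi1, an inhibitor that binds the EGF receptor and is itself induced by it, was also highest in WT replicate 1 and lowest in WT replicate 2, at 49.5 and 47.9 CPM in KO and 135 and 33.1 CPM in WT. The immediate early genes Egr1 and Fos were highest in WT replicate 1 as well. Egr1 was at 12.8 and 13.1 CPM in KO and 387 and 16.7 CPM in WT, and Fos at 66.3 and 59.1 CPM in KO and 747 and 71.1 CPM in WT. These 3 genes were chosen after their values were seen. WT replicate 1 exceeded 2 times the highest other library in 4.2% of all genes tested, and in Hbegf and Egfr among the 10 genes. It did so in 7 of 15 tested ERK-responsive genes, with the picked Fos and Egr1 among them.

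Areg, Ereg and Btc are neighbours on chromosome 5, together with the ligand gene Epgn, within 375.5 kb. Areg, the amphiregulin gene linked to epithelial repair, from 91139599 to 91148432, was at 13.7 and 10.8 CPM in KO and at 13.2 and 5.77 CPM in WT. Its groups overlapped, with a log2 fold change of 0.37 (SE 0.47, 95% interval -0.77 to 1.52, edgeR adjusted p = 0.727). Ereg, which encodes epiregulin, from 91074617 to 91093649, was at 13.2 and 14.1 CPM in KO and at 2.82 and 24.5 CPM in WT. The KO libraries stood between the WT libraries, whose values differed more than those of any other member relative to their mean, and the interval of the log2 fold change ran from -2.14 to 2.14. Btc, the betacellulin gene, from 91357261 to 91402994, was at 6.48 and 7.56 CPM in KO and at 13.6 and 5.38 CPM in WT, again on either side of KO (log2 fold change -0.43, SE 0.52, edgeR adjusted p = 0.709). Despite their shared locus, Ereg was lowest in WT replicate 1, the library in which Btc was highest. Epgn had 1 expected count in KO replicate 1 and 3 in WT replicate 1 and was not listed in the others.

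Per length, the ligands kept 1 order in both KO libraries: Areg, Tgfa, Hbegf, Ereg, Btc and Egf, from high to low. Areg led with 11.1 and 9.83 FPKM in KO, followed by Tgfa with 6.65 and 8.52 FPKM, and no 2 neighbours in the KO order of all 10 genes overlapped. In WT the leading ligand differed between libraries. Hbegf led in WT replicate 1 with 23.5 FPKM and Tgfa in WT replicate 2 with 9.75 FPKM. The 6 ligands together came to 28.5 and 31.3 FPKM in KO and to 52.8 and 27.4 FPKM in WT. The 3 receptors came to 62.2 and 71.3 FPKM in KO and to 112 and 103 FPKM in WT. Only the receptor sums did not overlap between the genotypes. Deposited FPKM summed to between 545753 and 669418 per library, so FPKM were compared within libraries first.

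**Figure D3:**
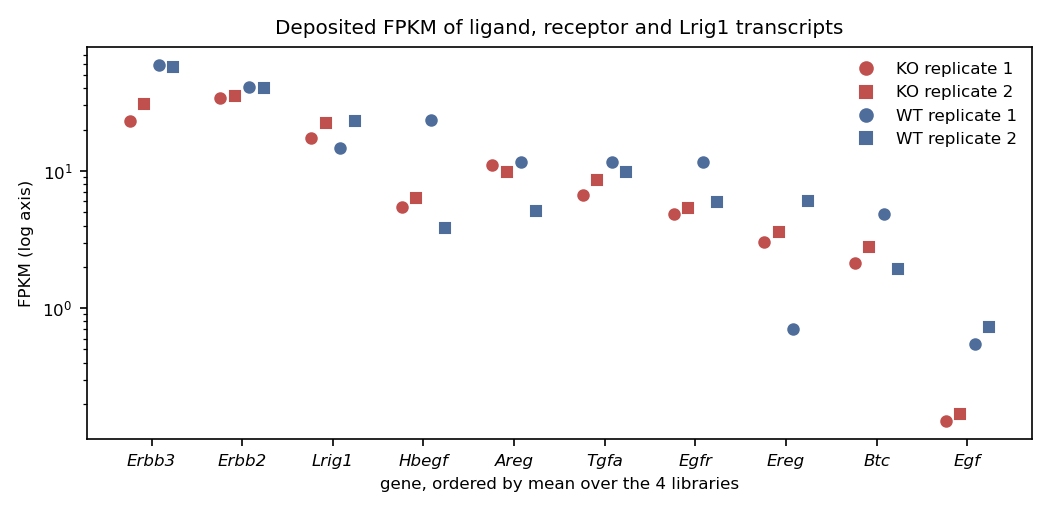
Deposited FPKM on a log axis for the 10 genes, ordered by their mean over the 4 libraries, with red points for KO, blue points for WT, circles for replicate 1 and squares for replicate 2. Erbb3 and Erbb2 lead, Egf is lowest at 0.15 to 0.73 FPKM, and the spread within WT is widest for Ereg and Hbegf.

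Lrig1, on chromosome 6 from 94604529 to 94700298, did not follow the receptors. It was at 91.1 and 106 CPM in KO and at 70.9 and 112 CPM in WT, so the KO libraries lay between the WT libraries. The mean was 98.6 ± 10.6 CPM in KO and 91.2 ± 28.7 CPM in WT (SD, n = 2 each), a log2 fold change of 0.11 (SE 0.27, edgeR adjusted p = 0.868). The 95% interval of -0.55 to 0.78 leaves room for a difference of up to 1.71-fold. Set against the receptors in the same library, Lrig1 came to 27.9% and 31.6% of the summed receptor FPKM in KO and to 13.1% and 22.3% in WT. Both KO values were above both WT values. This ratio is not a separate result on Lrig1, since Lrig1 overlapped between the groups and the receptor sum was lower in both KO libraries. Against Egfr alone the FPKM ratio was 3.60 and 4.19 in KO and 1.26 and 3.88 in WT, with WT replicate 2 inside the KO range. Of its paralogs, Lrig3 was at 47.3 and 60.0 CPM in KO and 85.6 and 63.5 CPM in WT (log2 fold change -0.47, edgeR adjusted p = 0.394). Lrig2 was at 18.0 and 22.9 CPM in KO and 20.2 and 17.4 CPM in WT (0.12, adjusted p = 0.849).

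Of the 10 genes, edgeR called 0 over all genes, 7 were lower and 3 higher in value, and the median log2 fold change was -0.45. Over all genes tested 49.7% were lower and the median was 0.004. At an unadjusted p under 0.05, 2 were lower and 0 higher, against 8.69% and 7.08% of all genes. The KO values were both below the WT values in 5 of the 10 (Egf, Tgfa, Egfr, Erbb2 and Erbb3) against 24.6% of all genes, and above both in 0 of the 10 against 25.4%. These counts are a description, since the genes were chosen and share libraries. They include Egf, which had 9 expected counts in each KO library and passed the filter on low counts through the WT libraries.

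**Figure D4:**
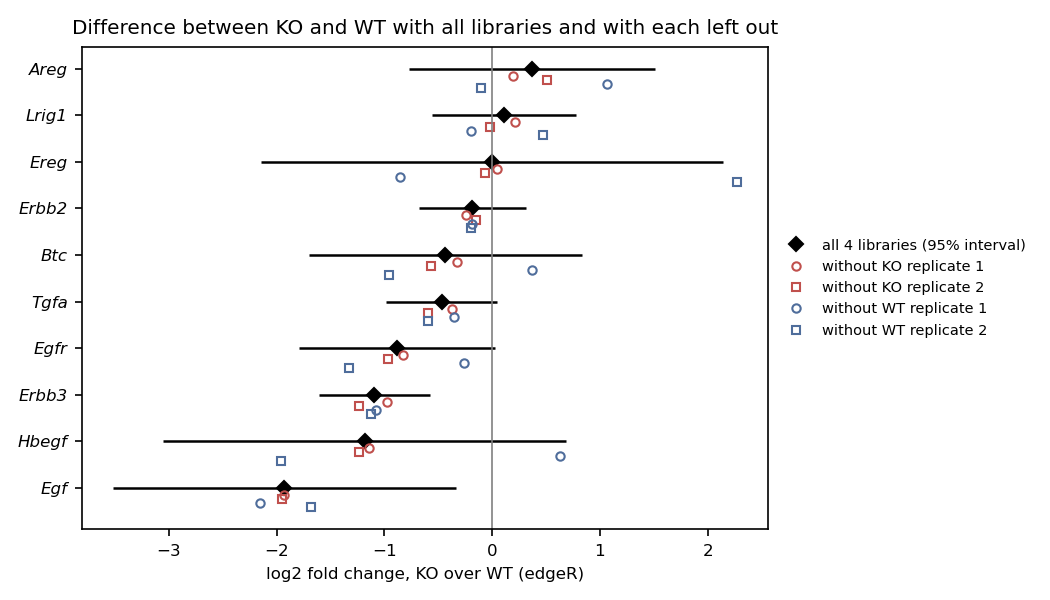
Log2 fold change of KO over WT (x axis) for the 10 genes, with all 4 libraries as diamonds and 95% intervals as lines, and with each library left out as open symbols. Erbb3 stays between -1.24 and -0.98 whichever library is left out, while Hbegf, Btc, Ereg, Areg and Lrig1 change sign in at least 1 of these settings.

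The patterns over the 4 libraries were compared by the root mean square distance of centred log2 CPM, which is near 0 for abundant genes in fixed proportion. Among the 10 genes Erbb3 and Egf were nearest to each other, at 0.215, and Tgfa and Erbb2 to each other, at 0.193. Over all genes tested, genes near to Erbb3 were Fam134b, which encodes a receptor for autophagy of the endoplasmic reticulum, and Tmem174, at distances of 0.0207 and 0.0322. Fam134b was at 14.5 and 17.4 CPM in KO and 35.6 and 34.9 CPM in WT. Tmem174 was rare, at 0.136 and 0.204 CPM in KO and 0.961 and 0.907 CPM in WT. Because 0.5 CPM was added before logs, differences of rare genes such as Tmem174 and Egf are made smaller in this measure. A distance under 0.2 from Erbb3 was shared by 209 genes, so with 4 libraries such closeness is common. The genes nearest to Egf were Zfp462, a zinc finger gene, Cmtm3 and Dpysl3, at 0.0378 to 0.0556, and 85 genes lay within 0.2.

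Other family genes were mostly rare. Nrg1, whose product is a ligand of ErbB3, was not listed in either KO library and had 8 and 1 expected counts in WT replicates 1 and 2. Nrg2 had 3 expected counts in WT replicate 1 alone, and Nrg3 and the receptor gene Erbb4 were not listed in any library. Nrg4, whose product is a ligand of ErbB4, was at 1.37 and 2.38 CPM in KO and 4.04 and 3.18 CPM in WT (log2 fold change -0.94, SE 0.57, edgeR adjusted p = 0.467). The tables start at 0.01 FPKM, so no upper limit is given for a gene that is not listed.

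Genes of ligand shedding had no uniform direction, with 4 of 9 tested members higher, 5 lower and 0 called by edgeR or DESeq2 (median log2 fold change -0.16). The metalloprotease gene Adam15 was at 47.4 and 44.8 CPM in KO and 19.8 and 30.5 CPM in WT (0.88, edgeR adjusted p = 0.249). Its relative Adam9 was at 30.6 and 36.2 CPM in KO and 59.5 and 49.5 CPM in WT (-0.70, adjusted p = 0.251). Thus Adam15 lay above WT and Adam9 below it in both KO libraries. Frmd8, whose product stabilises the sheddase complex of ADAM17, was at 97.0 and 83.4 CPM in KO and 68.1 and 61.4 CPM in WT (0.48, adjusted p = 0.320). Adam17, the main sheddase of most of these ligands, was at 35.9 and 34.1 CPM in KO and 29.5 and 39.8 CPM in WT.

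Genes of receptor feedback and turnover were lower in 12 of 18 tested members and higher in 6, with a median of -0.28 and 0 called by edgeR or DESeq2. The members with the smallest p were the Spred genes, which encode membrane-bound inhibitors of Ras-ERK signalling. Spred2 was at 20.3 and 22.5 CPM in KO and 36.3 and 33.9 CPM in WT (log2 fold change -0.71, edgeR adjusted p = 0.247). Spred1 was at 23.5 and 25.4 CPM in KO and 34.8 and 39.9 CPM in WT (-0.61, adjusted p = 0.271), and the rarer Spred3 at 0.955 and 0.953 CPM in KO and 4.42 and 2.2 CPM in WT (-1.79, adjusted p = 0.283). In all 3 the KO libraries lay below both WT libraries, as they did in 8 of the 18, against 24.6% of all genes tested.

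The cascades below the receptors showed medians near 0. Of 20 adaptor and ERK cascade genes 8 were higher and 12 lower (median -0.05), and of 13 PI3K-AKT genes 8 were higher and 5 lower (median 0.08), with 0 called by either tool in both lists. Gab1, a docking protein gene that links receptors to PI3K, had a log2 fold change of -0.47 (edgeR adjusted p = 0.311), and the Ras inhibitor gene Nf1 -0.55 (0.354). Hras was at 83.1 and 43.2 CPM in KO and 33.8 and 38.4 CPM in WT, high in KO replicate 1 alone. The PI3K regulatory subunit genes Pik3r2 and Pik3r1 had log2 fold changes of -0.68 and -0.40 and Rictor, a subunit gene of mTOR complex 2, -1.01, with adjusted p values of 0.278 to 0.367. Rictor was at 17.7 and 38.3 CPM in KO and 62.0 and 50.6 CPM in WT.

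Of the ERK-responsive genes 11 of 15 tested were lower and 4 higher, with a median of -0.89. edgeR called 0 and DESeq2 called 3, all lower, against 3.32% of all genes lower and 1.82% higher: Phlda1, Etv5 and Plaur, the members with the smallest p. Phlda1, a growth factor-induced gene also tied to crypt stem cells, was at 14.7 and 16.7 CPM in KO and 56.8 and 39.0 CPM in WT (log2 fold change -1.60, edgeR adjusted p = 0.131, DESeq2 adjusted p = 0.000203). Etv5, an ETS transcription factor gene induced by ERK signalling, was at 1.98 and 3.54 CPM in KO and 56.3 and 6.35 CPM in WT (-3.50, edgeR 0.244, DESeq2 0.00192). Plaur, the urokinase receptor gene, was at 1.5 and 2.59 CPM in KO and 17.9 and 3.95 CPM in WT (-2.42, edgeR 0.270, DESeq2 0.0479). Etv5 and Plaur were high in WT replicate 1 above all, and without it their log2 fold changes were -1.22 and -0.97. Summed over the list, the level was 659 and 613 CPM in KO and 1647 and 544 CPM in WT. WT replicate 2 thus lay below both KO libraries, but the sum rests largely on few genes. Ccnd1, which was higher in KO, gave 365.5 and 285.7 CPM of it in KO and 102.9 and 220.5 CPM in WT (log2 fold change 1.01, edgeR adjusted p = 0.305). Fos and Egr1 gave 747 and 387 CPM of it in WT replicate 1. The place of WT replicate 2 below both KO libraries depends on Ccnd1.

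**Figure D5:**
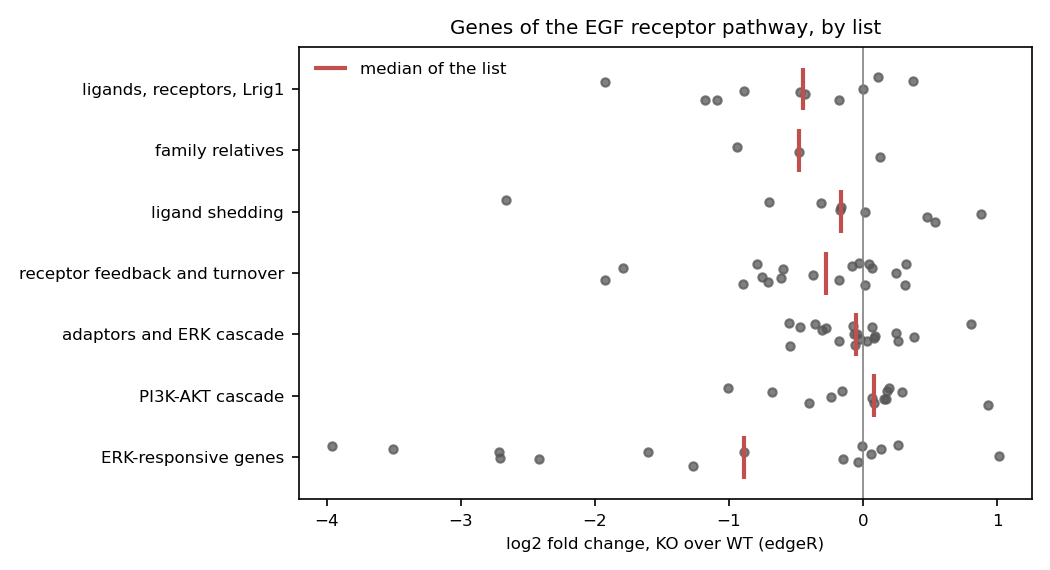
Log2 fold change of KO over WT (x axis) for each tested gene of 7 lists of the EGF receptor pathway, 1 point per gene with random vertical offset, and a red line at the median of each list. The medians run from -0.89 for ERK-responsive genes to 0.08 for the PI3K-AKT cascade, and no point passed the edgeR threshold.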

How the data were processed

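RNA of adenomas was read in pairs with a BGISEQ-500 instrument, per the labels' protocols. Bowtie2 2.2.5, RSEM 1.2.12 and mm10 are named, per the submitters' processing notes, without their role or order. The authors deposited an expected count for each gene, per the file headers. They also deposited FPKM, per the file headers, and the lowest value listed is 0.01. Genes not listed in a table were set to 0 counts. The row without a gene, at most 0.000233% of counts, was left out. Whether counting used strand is not stated.

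Tables were joined on gene identifiers (pandas 2.3.3), and 17721 identifiers matched RefSeq. Expected counts were rounded, and the genotypes were compared in R 4.3.3 by edgeR 4.0.16 (quasi-likelihood test, filterByExpr, TMM, genotype as the only term), with Benjamini-Hochberg adjustment over 12769 genes and a threshold of 0.05. The script was tested on simulated data drawn with the same spread for all genes. There edgeR called 1 of 99 genes changed 2-fold, 51 of 97 changed 4-fold and 1 of 12406 left unchanged. DESeq2 1.42.0 and limma 3.58.1 served as alternatives. The labels do not say how many animals a library holds, and the p-values rest on the spread among 4 libraries alone. Within each group the libraries differed in Xist and Ddx3y, so they do not come from the same animal. Replicates differed beyond counting noise (chi-square per degree of freedom 62.2 in KO and 124 in WT). Precision is limited by 2 libraries per group.

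The genes and the 18 lists (7 of the pathway and its members, 11 of cell types and gut regions) were chosen with earlier results of these data known. Named were all 10 genes, Strap, the detected family relatives, the 3 tested genes with the smallest p of each other pathway list, and the 3 nearest patterns to the 2 members with the smallest p (0.5 CPM was added before logs). An item that this rule names is not reported here. Adam17, Errfi1, Egr1, Fos, Ccnd1, Xist, Ddx3y and the single markers of cells and gut regions fall outside this rule. They were picked with their values in view.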

Additional observations from a re-analysis of the deposited data

How the results depend on the processing

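The counts of calls and the log2 fold changes of 29 named genes were recomputed under 12 other settings and 1 chosen after seeing the data; shares, ratios, list medians and pattern distances were not. Of the 29 genes 23 kept their direction in every setting that gave a value, among them Egf, Tgfa, Egfr, Erbb2 and Erbb3. Egf, Nrg4 and Spred3 had no value with at least 50 counts in at least 2 libraries. Over all genes edgeR called 1 higher and 0 lower. There were 0 higher calls with total counts alone and with limma on log2(FPKM + 1) and log2(FPKM + 0.1), and edgeR called 19 higher and 8 lower with no filter. DESeq2 called 233 higher and 424 lower. Leaving out 1 library gave 0 to 41 higher and 0 to 133 lower, both highest without WT replicate 2. Of the 10 genes DESeq2 called 1 lower (Erbb3), and leaving out 1 library gave 0 to 1 lower (Hbegf, without WT replicate 2); 0 were called higher in every setting. The cause of these differences was not tested, but without a library its group holds 1 sample, assumed to vary like the other group.

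The log2 fold change of Ereg was 0.00 and turned to -0.017 with DESeq2 size factors and with DESeq2, to -0.028 with total counts alone and to -0.032 with at least 50 counts in at least 2 libraries. Leaving out 1 library gave -0.86 to 2.27 for Ereg, -0.11 to 1.07 for Areg, -0.95 to 0.37 for Btc, -1.96 to 0.63 for Hbegf, -0.20 to 0.47 for Lrig1 and -0.081 to 0.28 for Lrig2. The ends of each range came from leaving out a WT replicate, except for Lrig2, where they came from leaving out a KO replicate.

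The labels attach no meaning to the replicate number. Both libraries numbered 1 were high in Xist and both numbered 2 low, so a block on the number is also a block on Xist level, and the crossed pairing joins libraries that differ in it. The deviations of same-numbered libraries from the group means had a correlation of -0.111. With the replicate block edgeR called 46 higher and 70 lower over all genes, and with the numbers crossed 65 higher and 99 lower; 0 of the 10 genes were called in either.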
